A study of Mus musculus with 20 samples.

Results

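The genes described here encode proteins of the lipid droplet, the organelle in which hepatocytes store triglyceride. They are the perilipins Plin2, Plin3, Plin4 and Plin5, the triglyceride lipase gene Pnpla2 with its activator gene Abhd5 and its inhibitor genes G0s2 and Hilpda, and the droplet dehydrogenase genes Hsd17b11 and Hsd17b13. They were chosen by gene symbol, and each of the 10 symbols matched 1 row of the deposited table, so the set holds 10 of 32400 genes. All 10 passed the filter on low counts, which kept 13667 genes. A lipid droplet has a core of neutral lipid under a single layer of phospholipid, and perilipins coat that layer and limit the access of lipases. Lipolysis starts when the lipase ATGL, the product of Pnpla2, removes a fatty acid from triglyceride, which CGI-58, the product of Abhd5, stimulates. In fatty liver perilipin 2 is the best known marker of stored lipid, and in human liver variants of HSD17B13 are known for their association with liver injury.

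Messenger RNA of C57BL/6NTac mouse liver was sequenced in 20 libraries of 3 groups. The HFHF Flcn gRNA group (n = 8) was on a high-fat, high-fructose diet and was given a guide RNA (gRNA) for Flcn in AAV8, a viral vector that reaches hepatocytes. The HFHF control group (n = 7) was on the same diet and received the vehicle PBS, so it had neither virus nor guide. The chow control group (n = 5) was left untreated on standard chow, and it differed from HFHF control in vehicle as well as in diet. The source of the nuclease, the sex and age of the mice and the length of the diet were not given in the labels. Whether every library is from a separate animal is not stated, so p-values measure the spread between these libraries, which may be technical.

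Library totals were 13974379 to 19586576 counts in the gRNA group, 15244760 to 18194089 in HFHF control and 14131976 to 16285324 in chow control. Levels are CPM, counts scaled to a common library size after TMM correction of the totals, and tests are edgeR's quasi-likelihood test with adjusted p-values over all 13667 genes. Flcn, the targeted gene, ranged from 14.1 to 22.0 CPM in the gRNA group, 17.8 to 26.4 CPM in HFHF control and 17.3 to 32.4 CPM in chow control. Its log2 fold change with the gRNA against HFHF control was -0.22 (SE 0.12, adjusted p = 0.14), and a transcript level is no measure of editing. The title of gRNA replicate 8 differs from all others in 1 number, whose meaning is not given, and values without that library are given where they differ. Hepatocyte markers such as Alb were abundant in every library, with 8 markers summing to 51823 to 83218 CPM in the gRNA group, 46807 to 67427 CPM in HFHF control and 74445 to 95551 CPM in chow control.

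The genes lie on 7 chromosomes of GRCm38, and several are neighbours. Plin4 (chromosome 17, 56100591 to 56109803) and Plin5 (chromosome 17, 56111601 to 56117596) stand side by side on the minus strand, with Plin3 (56277476 to 56292873) on the same strand of that chromosome. Hsd17b13 (chromosome 5, 103955440 to 103977410) and Hsd17b11 (chromosome 5, 103989762 to 104021919) are also neighbours on the minus strand. Promoter windows from RefSeq (GRCm38.p6), 250 bases before to 50 after a start, were found for all 10 genes, 12 windows in all. Below are those of Plin4, the gene with the largest diet difference here, Plin2, the most abundant perilipin gene, and Hsd17b13, each shown to 10 bases past the start. They read 5′ to 3′ on the minus strand from chr17:56109773-56110032, chr4:86670050-86670309 and chr5:103977379-103977638.
Plin4: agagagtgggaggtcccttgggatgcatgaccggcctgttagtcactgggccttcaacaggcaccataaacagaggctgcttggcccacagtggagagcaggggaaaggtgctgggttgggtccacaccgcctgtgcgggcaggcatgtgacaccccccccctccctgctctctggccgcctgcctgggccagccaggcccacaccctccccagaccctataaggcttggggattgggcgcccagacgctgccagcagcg
Plin2: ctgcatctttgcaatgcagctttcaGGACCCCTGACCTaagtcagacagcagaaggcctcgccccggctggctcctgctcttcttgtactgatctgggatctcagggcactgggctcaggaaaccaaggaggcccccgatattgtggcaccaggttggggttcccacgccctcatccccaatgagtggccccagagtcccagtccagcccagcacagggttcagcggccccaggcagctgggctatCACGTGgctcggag
Hsd17b13: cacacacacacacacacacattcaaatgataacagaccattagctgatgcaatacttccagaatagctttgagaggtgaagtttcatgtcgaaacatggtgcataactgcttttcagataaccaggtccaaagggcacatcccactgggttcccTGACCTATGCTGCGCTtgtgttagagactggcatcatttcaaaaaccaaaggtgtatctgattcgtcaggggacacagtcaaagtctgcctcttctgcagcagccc

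Capitals mark matches to motifs that factors of lipid metabolism can bind, searched on both strands. These were repeats of AGGTCA with 1 base between them (PPAR type) or 4 bases between them (LXR type), each with up to 2 mismatches over 12 fixed letters, the E-box CACGTG, and the hypoxia core ACGTG, which lies within the E-box. The Plin2 window held a PPAR-type repeat at -225 to -213 on the opposite strand and an E-box that spans the start at -4 to 2. The Hsd17b13 window held an LXR-type repeat at -96 to -81 on the opposite strand, and the Plin4 window held none of these letters. Among all 32851 windows, 3.86% held the PPAR-type repeat, 3.02% the LXR-type repeat, 7.15% the E-box and 19.6% the hypoxia core. Among the 10 genes, 1 had the PPAR-type repeat and 2 the LXR-type repeat (Hsd17b13 and 1 of the 2 windows of Plin5). The E-box was in 1 gene and the hypoxia core in 2 (Plin2 and 1 of the 2 windows of Hilpda). These counts are per gene over 12 windows, whereas the shares over all windows are per window. The start of that Plin5 window was found at the head of 0 annotated Plin5 transcripts. A match describes the letters of the window only.

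Per exon length and by group mean, Hsd17b13 and Plin2 were the most abundant of the 10 genes in all 3 groups, and Hilpda was the least. Hsd17b13, a droplet protein of hepatocytes, averaged 218 ± 40.0 CPM per kilobase of exon in the gRNA group, 229 ± 26.3 in HFHF control and 129 ± 12.5 in chow control. Plin2 followed with 174 ± 23.9, 212 ± 38.7 and 105 ± 22.8 CPM per kilobase in the same groups, and its range overlapped that of Hsd17b13 in each. Hilpda averaged 1.90 ± 0.417 CPM per kilobase in the gRNA group, 2.70 ± 0.709 in HFHF control and 1.22 ± 0.224 in chow control, where SD is over n = 8, n = 7 and n = 5 libraries. Plin4 held the fifth place in the gRNA group and in HFHF control but the ninth in chow control, where its library range overlapped that of Hilpda. In both HFHF groups Plin4, Plin3, Pnpla2 and Plin5 stood next to each other, and neighbours in this order overlapped. G0s2, which ranked above them, also overlapped Plin4 in both. The lipase gene Pnpla2 stood at 14.4 ± 1.93, 14.1 ± 2.11 and 9.79 ± 1.48 CPM per kilobase in the 3 groups, against 4.54 ± 0.501, 4.81 ± 0.226 and 4.49 ± 0.492 for its activator Abhd5 and 51.6 ± 14.5, 42.6 ± 13.2 and 56.6 ± 28.2 for its inhibitor G0s2.

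**Figure D1:**
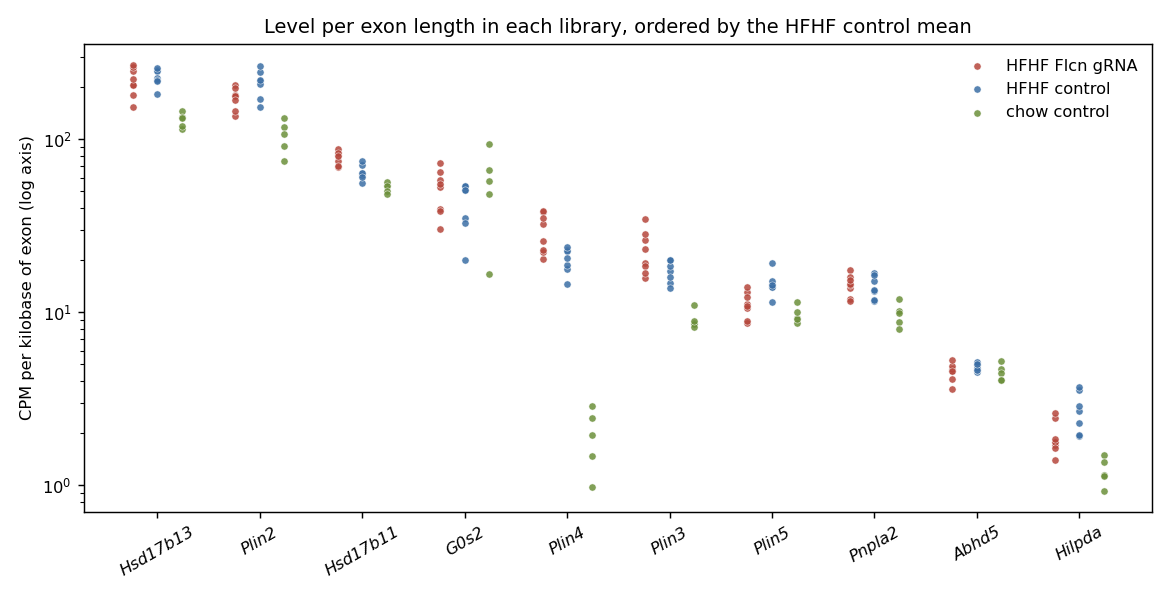
CPM per kilobase of merged exon (log axis) of each gene in each of 20 libraries, with genes ordered by their mean in HFHF control and groups side by side from gRNA to chow control. Hsd17b13 and Plin2 lie highest and Hilpda lowest, and Plin4 in chow control lies apart from its level in both HFHF groups.

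On the HFHF diet, livers given the Flcn gRNA were set against livers given vehicle. Of the 10 genes, 3 rose (Plin3, Plin4 and Hsd17b11), 2 fell (Plin5 and Hilpda) and 5 did not pass, in a comparison that called 38.6% of all genes, 19.6% higher and 19.0% lower. The changes were between 1.22- and 1.46-fold, and for none of the 10 genes did the libraries of both groups lie fully apart, which 11.0% of all genes did (5.04% higher and 6.01% lower). The median log2 fold change of the 10 genes was -0.02, against 0.01 over all genes tested. Without gRNA replicate 4, 6 or 8, 3 genes were called, and without HFHF control replicate 2, 2 were called.

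The 4 perilipin genes did not move in 1 direction with the gRNA. Plin4, which encodes a perilipin with a long run of repeats that binds the droplet surface, had a lowest, median and highest value of 117, 167 and 223 CPM in the gRNA group, against 84.3, 119 and 137 CPM in HFHF control. In 5 of 8 gRNA libraries Plin4 was above every HFHF control library, and the others overlapped. It rose by a log2 fold change of 0.54 (SE 0.19, 95% interval 0.15 to 0.93, adjusted p = 0.0266). Without gRNA replicate 4, 6 or 8 or HFHF control replicate 2 or 4, the adjusted p was 0.0513 to 0.0568 with values of 0.48 to 0.51. Plin3, which encodes a perilipin that moves from the cytosol to small droplets, had 59.5, 80.5 and 131 CPM in the gRNA group, against 52.8, 65.6 and 76.0 CPM in HFHF control. In 4 of 8 gRNA libraries it was above every HFHF control library, and gRNA replicate 8 was the highest of all. It rose by 0.41 (SE 0.14, 95% interval 0.11 to 0.71, adjusted p = 0.0299). Without gRNA replicate 8 the value was 0.29 (adjusted p = 0.0739), and it also missed the threshold without gRNA replicate 4 or 6 or HFHF control replicate 2, 4 or 5 (adjusted p 0.0539 to 0.0636). Plin3 missed it as well in a fit of both HFHF groups alone (0.40, adjusted p = 0.0548) and without the low-count filter (0.40, adjusted p = 0.0595), where Plin4 also missed it (0.54, adjusted p = 0.0524).

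Plin5, which encodes the perilipin of oxidative tissues that tethers droplets to mitochondria, went the other way. Its lowest, median and highest values were 18.0, 22.9 and 29.3 CPM in the gRNA group, against 23.8, 30.1 and 40.4 CPM in HFHF control. In 5 of 8 gRNA libraries Plin5 was below every HFHF control library. It fell with a log2 fold change of -0.40 (SE 0.10, 95% interval -0.61 to -0.18, adjusted p = 0.00462), and it passed with any 1 library left out. Plin2, the constitutive perilipin of hepatocyte droplets, had 478, 622 and 727 CPM in the gRNA group, against 539, 763 and 929 CPM in HFHF control. Only 2 of 8 gRNA libraries were below every HFHF control library. Its log2 fold change of -0.28 (SE 0.12, 95% interval -0.54 to -0.03, adjusted p = 0.0738) did not pass. It passed without HFHF control replicate 1 (-0.35, adjusted p = 0.0269) or 4 (-0.33, adjusted p = 0.0463) or chow control replicate 1 (-0.29, adjusted p = 0.0475), and in a fit of both HFHF groups alone (-0.30, adjusted p = 0.0496).

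**Figure D2:**
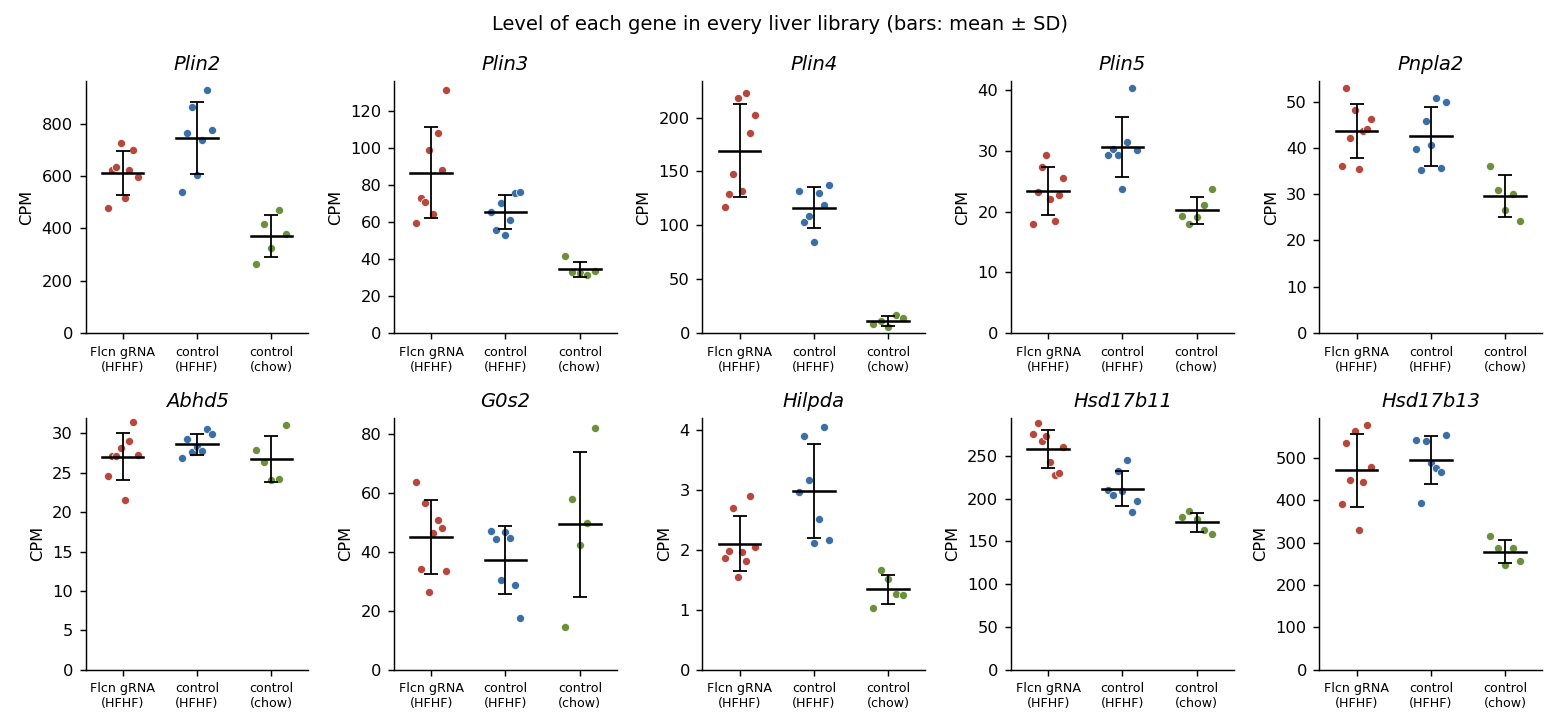
CPM of each gene in every library (points), with the mean and SD of each group, for HFHF Flcn gRNA (n = 8), HFHF control (n = 7) and chow control (n = 5). Plin4 lies at 117 to 223 CPM in the gRNA group and 84.3 to 137 CPM in HFHF control, against 5.68 to 16.6 CPM in chow control, while Abhd5 and G0s2 overlap in all groups.

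Of the lipase and its partners, Hilpda fell with the gRNA. Hilpda, a small droplet protein known as a hypoxia target and an ATGL inhibitor, had 1.54, 1.97 and 2.90 CPM in the gRNA group (24 to 47 counts a library), against 2.12, 2.97 and 4.05 CPM in HFHF control (42 to 76 counts). In 6 of 8 gRNA libraries it was below every HFHF control library. The log2 fold change was -0.50 (SE 0.17, 95% interval -0.85 to -0.15, adjusted p = 0.0217), and it missed the threshold without HFHF control replicate 2 (adjusted p = 0.0576) or 6 (adjusted p = 0.0646). Pnpla2 was at 0.03 (95% interval -0.17 to 0.24, adjusted p = 0.816), with values of 35.5 to 53.0 CPM in the gRNA group and 35.3 to 50.7 CPM in HFHF control. Abhd5 was at -0.08 (95% interval -0.22 to 0.06, adjusted p = 0.387). G0s2, which encodes an inhibitor that binds ATGL directly, was at 0.28 with the wide interval of -0.33 to 0.89 (adjusted p = 0.484), its values running over 26.4 to 63.7 CPM in the gRNA group and 17.6 to 47.0 CPM in HFHF control. In 4 of 8 gRNA libraries G0s2 was above every HFHF control library, and 0 were below all of them. For Pnpla2 1 of 8 was above and 0 were below.

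The neighbouring dehydrogenase genes differed in their values. Hsd17b11, a droplet protein of many tissues, had 227, 264 and 288 CPM in the gRNA group, against 184, 209 and 245 CPM in HFHF control. In 5 of 8 gRNA libraries it was above every HFHF control library. It rose by 0.29 (SE 0.07, 95% interval 0.14 to 0.43, adjusted p = 0.00197) and passed with any 1 library left out. Hsd17b13 had 330.0, 463 and 578 CPM in the gRNA group, against 393, 487 and 553 CPM in HFHF control, and its log2 fold change was -0.07 (SE 0.10, 95% interval -0.28 to 0.15, adjusted p = 0.632).

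**Figure D3:**
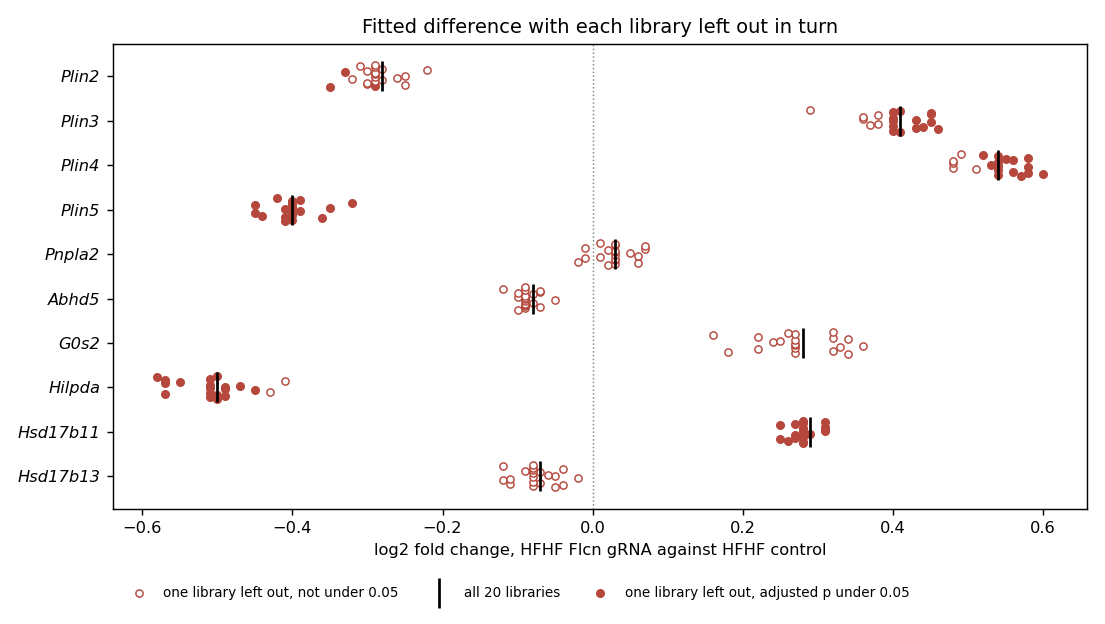
Log2 fold change of each gene for HFHF Flcn gRNA against HFHF control, with all 20 libraries (black marks) and with each library left out in turn (points, filled where the adjusted p is under 0.05). Plin5 and Hsd17b11 stay filled throughout at -0.45 to -0.32 and 0.25 to 0.31, and Plin2, Plin3, Plin4 and Hilpda have both filled and open points.

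The size of these values depends on how libraries are scaled to each other. With library totals alone in place of TMM factors, the median of all genes was -0.17 in this comparison, 0.27 in HFHF control against chow control and 0.10 in gRNA against chow control. Under that scaling Plin3 was at 0.22 (adjusted p = 0.217), Plin4 at 0.36 (adjusted p = 0.128) and Hsd17b11 at 0.11 (adjusted p = 0.166) with the gRNA, while Plin2 at -0.46 (adjusted p = 0.00607) and Abhd5 at -0.26 (adjusted p = 0.0115) passed. Relative to the median of all genes the values were 0.39, 0.53, 0.28, -0.29 and -0.09 for these 5 genes, close to those with TMM factors. Calls in all, higher genes first, were 1028 and 5149 under library totals, against 2673 and 2597 under TMM factors. In HFHF control against chow control they were 6595 and 1604 under library totals and 4619 and 2991 under upper-quartile scaling, against 3847 and 3947, and in gRNA against chow control 3739 and 1872 under library totals, against 2860 and 2959. With upper-quartile scaling, where higher genes made up 37.8% of calls in place of 50.7%, Plin3 was at 0.35 (adjusted p = 0.0605) and Plin2 at -0.34 (adjusted p = 0.0341).

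The second comparison asks what the HFHF diet with vehicle changed against untreated chow. Of the 10 genes, 8 rose, 0 fell and 2 (Abhd5 and G0s2) did not pass, where the comparison called 57.0% of all genes, 28.1% higher and 28.9% lower. In 6 of the 10 genes every HFHF control library was above every chow control library, which held for 18.8% of all genes tested, while 18.1% lay fully below and 37.0% lay apart in either direction. The median log2 fold change of the 10 genes was 0.71, against -0.01 over all genes. The 8 calls stood with any 1 of the 20 libraries left out.

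All 4 perilipin genes rose on the diet, and Plin4 rose most. Plin4 had a lowest, median and highest value of 84.3, 119 and 137 CPM in HFHF control, and the chow control libraries held 8.53, 11.3, 5.68, 16.6 and 14.2 CPM. The groups were far apart, with a log2 fold change of 3.37 (SE 0.25, 95% interval 2.85 to 3.89, adjusted p = 3.02e-09), which is 10.3-fold. Plin2 had 539, 763 and 929 CPM in HFHF control, against 262, 416, 323, 468 and 379 CPM in the chow control libraries. Every HFHF control library was above every chow one, and the log2 fold change was 1.01 (SE 0.14, 95% interval 0.71 to 1.31, adjusted p = 3.84e-06). Plin3 had 52.8, 65.6 and 76.0 CPM in HFHF control, against 41.7, 32.8, 32.6, 31.2 and 33.7 CPM in chow control, again without overlap. It rose by 0.92 (SE 0.17, adjusted p = 1.05e-04). Plin5 rose by 0.60 (SE 0.12, adjusted p = 2.26e-04), from libraries of 23.8 to 40.4 CPM in HFHF control and 18.0 to 23.7 CPM in chow control, which lay apart by little.

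**Figure D4:**
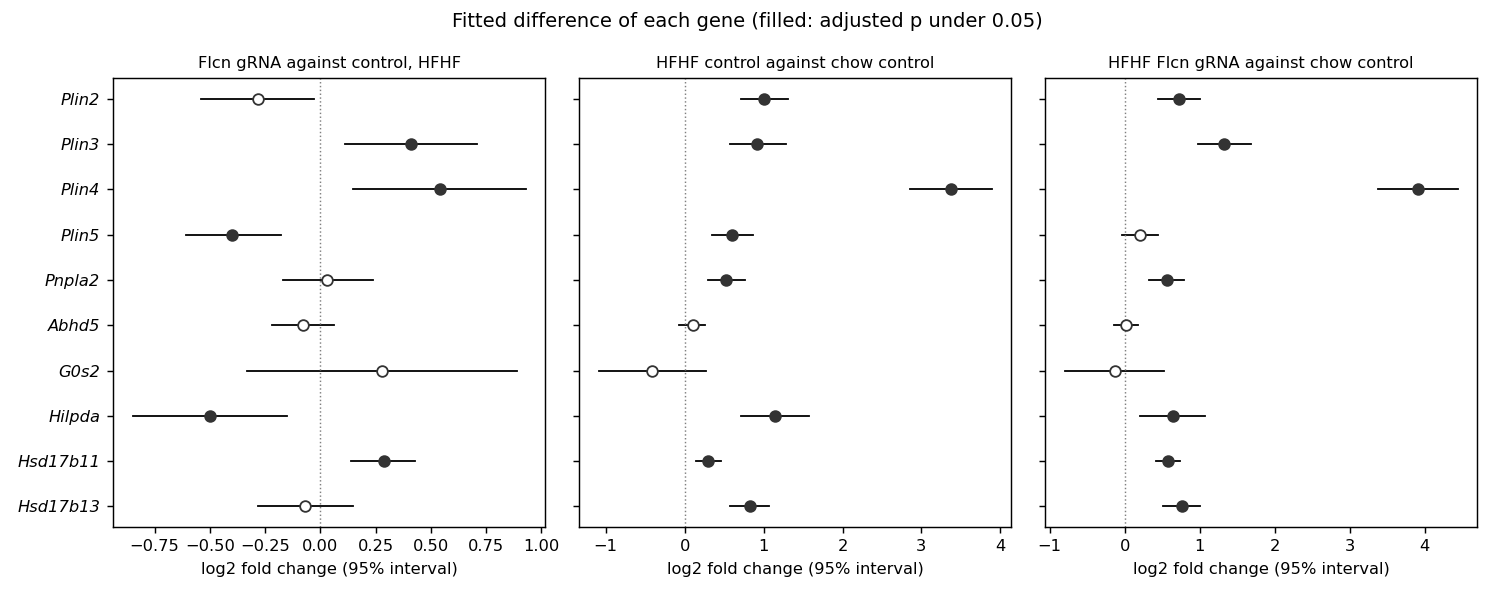
Fitted log2 fold change with its 95% interval for each gene in each of the 3 comparisons, filled where the adjusted p is under 0.05, with horizontal axes that differ between panels. With the gRNA on the HFHF diet values lie on both sides of 0, from -0.50 for Hilpda to 0.54 for Plin4, and against chow control the called values are all positive.

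The lipase gene rose on the diet, its activator did not pass, and its inhibitors differed. Pnpla2 was at 35.3 to 50.7 CPM in HFHF control, against 36.0, 30.9, 26.6, 30.1 and 24.2 CPM in chow control, so that chow replicate 1 overlapped 2 of the HFHF control libraries. It rose by 0.53 (SE 0.11, 95% interval 0.29 to 0.76, adjusted p = 4.64e-04). Hilpda was at 2.12 to 4.05 CPM in HFHF control and 1.03 to 1.66 CPM in chow control (14 to 25 counts a library), without overlap. It rose by 1.14 (SE 0.21, 95% interval 0.71 to 1.57, adjusted p = 7.15e-05). Abhd5 was at 26.9 to 30.6 CPM in HFHF control and 24.1 to 31.1 CPM in chow control, with a log2 fold change of 0.10 (95% interval -0.07 to 0.26, adjusted p = 0.304), and it passed under library totals alone (0.38, or 0.11 relative to the median of all genes) and upper-quartile scaling (0.19). G0s2 was at 17.6 to 47.0 CPM in HFHF control, against 14.6, 57.9, 42.2, 49.8 and 82.1 CPM in chow control. Its chow libraries spanned more than those of any other group, and the log2 fold change of -0.41 (95% interval -1.09 to 0.27, adjusted p = 0.295) did not pass.

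Both dehydrogenase genes rose on the diet. Hsd17b13 was at 393, 487 and 553 CPM at its lowest, median and highest in HFHF control, against 315, 288, 248, 287 and 256 CPM in chow control. No library overlapped, and it rose by 0.83 (SE 0.12, 95% interval 0.58 to 1.07, adjusted p = 4.81e-06). Hsd17b11 was at 184, 209 and 245 CPM in HFHF control, against 179, 185, 176, 163 and 159 CPM in chow control, where chow replicate 2 overlapped the lowest HFHF control library. It rose by 0.30 (SE 0.08, 95% interval 0.14 to 0.46, adjusted p = 0.00244).

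The comparison of the gRNA group with chow control shares libraries with both others, so its values stand beside them and add no independent evidence. Of the 10 genes, 7 were higher, 0 lower and 3 (Plin5, Abhd5 and G0s2) did not pass, where 42.6% of all genes were called, 20.9% higher and 21.7% lower. In 5 of them every gRNA library was above every chow library, as in 9.01% of all genes, where 8.98% lay fully below. Plin4 was at 3.91 (SE 0.25, adjusted p = 1.04e-09), or 15.0-fold, and Plin3 at 1.33 (SE 0.17, adjusted p = 3.88e-06), beside diet values of 3.37 and 0.92. Plin2 was at 0.73 (SE 0.14, adjusted p = 2.65e-04), Hilpda at 0.64 (SE 0.21, adjusted p = 0.0166) and Hsd17b13 at 0.76 (SE 0.12, adjusted p = 2.52e-05), beside diet values of 1.01, 1.14 and 0.83. Hsd17b11 was at 0.58 (SE 0.08, adjusted p = 3.34e-06), against 0.30 for the diet, and Pnpla2 at 0.56 (SE 0.11, adjusted p = 3.90e-04), against 0.53. Plin5 was at 0.21 (SE 0.12, 95% interval -0.04 to 0.45, adjusted p = 0.171), where the diet value was 0.60.

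Ratios of counts within a library need no scaling between libraries, and 3 pairs were tested in the 3 comparisons with exact two-sided permutation tests, adjusted over 9 tests. The ratio of Hsd17b13 to Hsd17b11 separated the diet groups and moved in the other direction with the gRNA. Its log2 value was 0.85 ± 0.29 in the gRNA group (n = 8), 1.22 ± 0.21 in HFHF control (n = 7) and 0.69 ± 0.13 in chow control (n = 5). With the gRNA it was lower than in HFHF control by a difference of -0.37 (exact permutation p = 0.0163, adjusted 0.0369), although the libraries overlapped (0.44 to 1.33 in the gRNA group, 0.94 to 1.49 in HFHF control). In HFHF control against chow control the difference was 0.53 (exact permutation p = 0.00253, adjusted 0.0114), with 0.94 to 1.49 against 0.49 to 0.81. In gRNA against chow control it was 0.16 (exact permutation p = 0.281, adjusted 0.316).

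The ratio of Plin5 to Plin2 was lower in both HFHF groups than on chow. Its log2 value was -4.72 ± 0.20 in the gRNA group, -4.59 ± 0.21 in HFHF control and -4.17 ± 0.32 in chow control. The difference was -0.12 for gRNA against HFHF control (exact permutation p = 0.262, adjusted 0.316), -0.42 for HFHF control against chow control (exact permutation p = 0.0164, adjusted 0.0369) and -0.55 for gRNA against chow control (exact permutation p = 7.77e-04, adjusted 0.00699). Without chow replicate 1 the diet difference was -0.32 (exact permutation p = 0.0576, not adjusted). The ratio of the inhibitor G0s2 to its lipase Pnpla2 was 0.00 ± 0.59 in the gRNA group, -0.26 ± 0.64 in HFHF control and 0.55 ± 1.13 in chow control, and no difference passed (exact permutation adjusted p = 0.428, 0.268 and 0.316 in the order of the comparisons above). Chow replicate 1 stood at -1.30, below the other 4 chow libraries at 0.66 to 1.76. Without it the difference was -1.27 for HFHF control against chow control (exact permutation p = 0.00606) and -1.01 for gRNA against chow control (exact permutation p = 0.0141). These p-values are not adjusted, and the library was named after its value in this ratio was seen. That library also had the lowest Plin2, G0s2 and Hilpda and the highest Plin3, Pnpla2 and Hsd17b13 of its group.

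**Figure D5:**
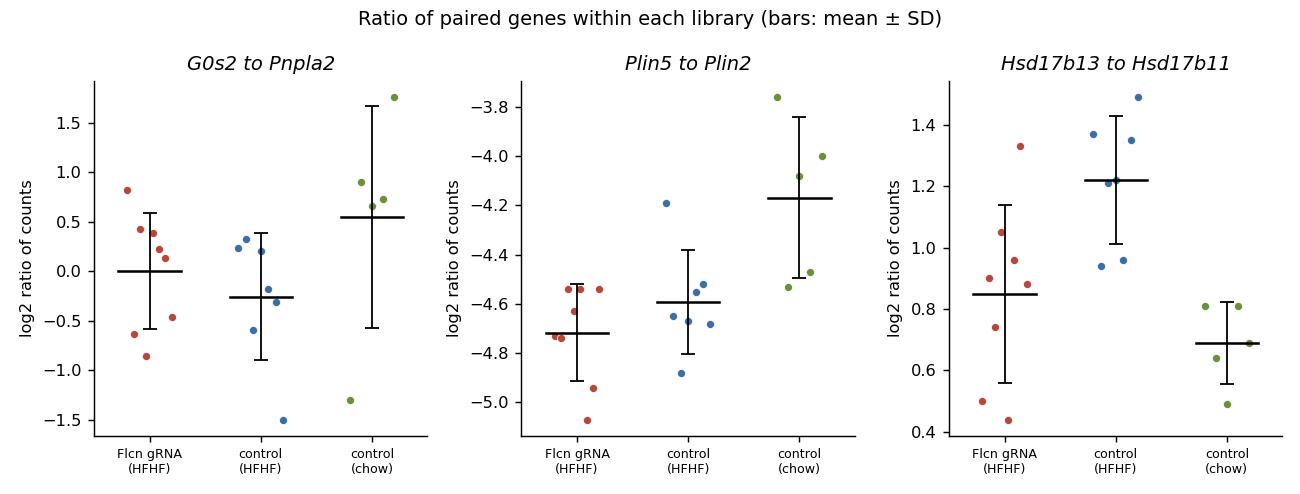
Log2 ratio of counts of paired genes within each library (points) with mean and SD of each group, for gRNA (n = 8), HFHF control (n = 7) and chow control (n = 5). The Hsd17b13 to Hsd17b11 ratio is 0.94 to 1.49 in HFHF control and 0.49 to 0.81 in chow control, and the gRNA libraries, at 0.44 to 1.33, overlap both. Chow replicate 1 lies low at -1.30 in the G0s2 to Pnpla2 panel.

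Pairs of the 10 genes were also compared across libraries within each HFHF group, 90 relations in all, with exact permutation tests over pairings. None passed after adjustment (smallest adjusted p = 0.185). The pairs named here were chosen after their values were seen. The smallest p was that of Abhd5 and Hsd17b13 in the gRNA group, with Pearson r = 0.87 (exact permutation p = 0.00384, adjusted 0.185) and Spearman rho = 0.74 (exact permutation p = 0.0458, adjusted 0.516, n = 8), and r = 0.56 without the 2 libraries farthest from the median of Abhd5. In HFHF control that pair had r = -0.37 and rho = -0.36 (exact permutation p = 0.416 and 0.444, n = 7), and r = -0.93 without the 2 farthest. In the gRNA group Plin3 and Plin4 had Pearson r = 0.90 (exact permutation p = 0.00508, adjusted 0.185) and Spearman rho = 0.86 (exact permutation p = 0.0107, adjusted 0.516, n = 8), and r was 0.96 without the 2 libraries farthest from the median of Plin3. In HFHF control the same pair had r = 0.70 and rho = 0.71 (exact permutation p = 0.0762 and 0.0881, adjusted 0.488 and 0.567, n = 7), but r = -0.15 without the 2 farthest libraries, so it rests on those. Over all 20 libraries, with log2 CPM centred on the group means and no test, the gene most like Plin2 among 9802 genes was Enc1 (r = 0.92), followed by Hsdl2 (0.83). For Plin5 these were Stk39 (0.74) and Gpx3 (0.72), for Pnpla2 March5 (0.92) and Casp6 (0.91), for G0s2 Ampd2 (0.84) and Mmgt1 (0.83), and for Hsd17b13 Gm19950 (0.86) and Ctbs (0.84). Against the 8 others of the set that were searched (Hilpda was too low), Pnpla2 was most like Hsd17b13 (0.75) and least like G0s2 (-0.61).

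Other genes of lipolysis and droplets, taken from lists of known function, had members called in both directions, and their counts stand beside the shares over all genes. Those shares were 38.6% called with the gRNA (19.6% higher, 19.0% lower), 57.0% on the diet (28.1% higher, 28.9% lower) and 42.6% in gRNA against chow control (20.9% higher, 21.7% lower). Of 23 other lipases and hydrolases, 9 rose, 1 fell and 13 did not pass with the gRNA (median log2 fold change 0.16, against 0.01 over all genes). The number called was near the 38.6% of all genes, with the share higher above 19.6% and the share lower under 19.0%. On the diet 7 rose, 12 fell and 4 did not pass (median -0.27, against -0.01), and in gRNA against chow control 7 were higher and 10 lower (median -0.11, against 0.00). Both numbers called lie above the 57.0% and 42.6% of all genes. The carboxylesterase genes Ces1e (log2 fold change 0.56, SE 0.09) and Ces2a (0.89, SE 0.17) and the phospholipase gene Pnpla8 (0.32, SE 0.06) had the smallest p with the gRNA, and Ces2a (-2.36, SE 0.19), Ces1d (-1.13, SE 0.11), a triglyceride hydrolase, and Ces3b (-2.72, SE 0.28) on the diet. Carboxylesterase genes stand in clusters of related copies, and whether reads were shared between copies was not checked. In gRNA against chow control these were Ces1d (-0.88, SE 0.10), Ces2a (-1.47, SE 0.18) and the phospholipase gene Ddhd2 (0.55, SE 0.08).

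Of 35 tested of 37 listed genes of droplet assembly and surface, 11 rose, 5 fell and 19 did not pass with the gRNA (median 0.08), 8 rose, 14 fell and 13 did not pass on the diet (median -0.12), and 10 were higher and 11 lower in gRNA against chow control (median 0.00). The medians over all genes were 0.01, -0.01 and 0.00. The numbers called lie near the 38.6% of all genes with the gRNA and the 57.0% on the diet. In gRNA against chow control the number called lies above the 42.6% of all genes. Fitm1, whose product binds triglyceride in the endoplasmic reticulum, averaged 13.3 ± 2.29 CPM in the gRNA group and 22.7 ± 3.40 CPM in HFHF control (-0.77, SE 0.11, adjusted p = 6.59e-06). Vps13c, a lipid transfer protein gene (0.56, SE 0.09), and Pcyt1a, which encodes the rate-setting enzyme of phosphatidylcholine synthesis (0.37, SE 0.07), rose with the gRNA. Cidec, which encodes a protein that fuses droplets, averaged 80.3 ± 7.77 CPM in HFHF control and 0.654 ± 0.431 CPM in chow control (6.94, SE 0.36, adjusted p = 5.31e-11). The genes that fell on the diet with the smallest p encode enzymes of sterol and retinol metabolism found on droplets or the endoplasmic reticulum, Nsdhl (-2.70, SE 0.11) and Rdh11 (-2.13, SE 0.10). In gRNA against chow control Nsdhl was at -2.62, Rdh11 at -1.95 and the squalene epoxidase gene Sqle at -6.16 (SE 0.30). Plin1, the perilipin of adipocytes, was under the filter and at most 0.140 CPM in any library.

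Of 6 other tested genes named for 17-beta hydroxysteroid dehydrogenases, 3 rose and 0 fell with the gRNA (median 0.21), 0 rose and 2 fell on the diet (median -0.29), and 1 was higher and 2 were lower in gRNA against chow control (median 0.20), beside the same shares of 38.6%, 57.0% and 42.6% over all genes. With the gRNA these were Hsd17b10 (0.42, SE 0.10), Hsd17b6 (0.75, SE 0.22) and Hsd17b2 (0.28, SE 0.10), and on the diet Hsd17b7, an enzyme of cholesterol synthesis (-1.80, SE 0.10), and Hsd17b2 (-0.97, SE 0.11). In gRNA against chow control Hsd17b7 was at -1.74, Hsd17b2 at -0.69 and Hsd17b4, which encodes a peroxisomal beta-oxidation enzyme, at 0.23. Of 16 genes of factors known to act on droplet genes, 4 rose and 2 fell with the gRNA (median 0.09), 2 rose and 6 fell on the diet (median -0.15), and 4 were higher and 5 lower in gRNA against chow control (median -0.06), where 38.6%, 57.0% and 42.6% of all genes were called. Ppara averaged 156 ± 21.7 CPM in the gRNA group, 90.3 ± 15.1 CPM in HFHF control and 91.6 ± 11.9 CPM in chow control, with 0.79 (SE 0.10) against HFHF control and 0.77 (SE 0.12) against chow. Ppargc1a (1.37, SE 0.20) and Creb3l3 (0.31, SE 0.06) also rose with the gRNA. On the diet Mlxipl (-0.77, SE 0.13) and Creb3l3 (-0.40, SE 0.07) fell and Pparg rose (1.09, SE 0.18), and in gRNA against chow control Atf4 was at -0.67 (SE 0.11) and Srebf1 at 1.04 (SE 0.17).

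Markers of other cells that hold droplets moved as well, and in whole liver fewer cells of a type cannot be told apart from less RNA per cell. Over all genes, 19.6% were called higher and 19.0% lower with the gRNA, and 28.1% and 28.9% on the diet. In gRNA against chow control these shares were 20.9% and 21.7%. The 10 markers of lipid-associated and monocyte-derived macrophages summed to 153 to 353 CPM in the gRNA group, 304 to 732 CPM in HFHF control and 54.3 to 112 CPM in chow control. Of these, 0 were higher and 9 lower with the gRNA, 10 higher and 0 lower on the diet and 9 higher and 0 lower in gRNA against chow control. By group mean Gpnmb went the other way with the gRNA, at 72.3 CPM against 46.1 CPM in HFHF control. The lipase gene Lpl, also among the other lipases above, had the highest mean of the 10 in each group. It averaged 111 CPM in the gRNA group, 221 CPM in HFHF control and 43.6 CPM in chow control. Spp1 averaged 40.0, 158 and 19.9 CPM in the same groups. The 9 stellate cell markers summed to 313 to 426 CPM in the gRNA group, 505 to 624 CPM in HFHF control and 245 to 314 CPM in chow control, with 0 higher and 6 lower, 8 higher and 0 lower, and 5 higher and 0 lower in the same comparisons. None of these markers was at 0 in a whole group, and their part in the values of Plin2, Plin5 and Hilpda was not tested. Kupffer cell markers summed to 149.6 to 331, 120.1 to 319 and 94.7 to 184 CPM in the 3 groups, with 4 higher and 0 lower with the gRNA, 1 and 3 on the diet and 1 and 1 in gRNA against chow control. Endothelial markers summed to 124 to 223, 116 to 172 and 129 to 156 CPM, with 3 and 0, 1 and 2, and 2 and 0. Of the 8 hepatocyte markers 3 were higher and 0 lower with the gRNA, 1 and 6 on the diet and 1 and 4 in gRNA against chow control.

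Of 8 adipocyte markers, Adipoq, Lep, Retn and Plin1 were at or near 0, and Fabp4, Adrb3 and Cfd were not. Adipoq and Lep were at 0 in every library of both HFHF groups, and Plin1 averaged 0.0244 CPM in the gRNA group, 0.0304 CPM in HFHF control and 0.0149 CPM in chow control. The 8 adipocyte markers still summed to 40.5 to 106 CPM in the gRNA group, 28.3 to 57.5 CPM in HFHF control and 12.6 to 18.6 CPM in chow control, almost all from Fabp4, Adrb3 and Cfd. Fabp4, Adrb3 and Cfd passed the filter. With the gRNA Cfd (mean 14.5 CPM, against 2.09 CPM in HFHF control) and Adrb3 (24.9 against 3.71 CPM) rose. Fabp4 (15.8 against 35.4 CPM) fell. On the diet 2 of the 3 rose and 0 fell, and in gRNA against chow control 3 were higher and 0 lower. In the 3 comparisons 38.6%, 57.0% and 42.6% of all genes were called. The 6 skeletal muscle markers summed to 0.300 to 1.16 CPM in the gRNA group, 0.202 to 1.01 CPM in HFHF control and 0.311 to 0.832 CPM in chow control, with Myh1 at 0 in all groups and Myh4 also in chow control. The 1 muscle marker tested passed in no comparison.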

How the data were processed

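The authors deposited expected counts per gene, which are estimated counts, and 77.8% of the values that reach 1 were whole. Per the labels' protocols, liver RNA was taken up in Trizol, mRNA libraries were made with the KAPA mRNA HyperPrep kit and adapters with molecular identifiers, and reads were single-end. The submitters' processing notes name GRCm38 as build. Which aligner, counter and annotation were used, and whether strand and molecular identifiers were, the sources used here do not say. Gene names came from GENCODE M21, which matched 32325 of 32400 genes. A further 22 construct features (7.0 counts in all) and 1 column that matched no label were not used. Without known use of strand, Plin4 shares 17 exon bases with Hdgfl2, and Abhd5 shares 950 with an antisense gene of 10 counts in all, so these reads cannot be told apart.

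Expected counts were rounded, filtered with filterByExpr, scaled with TMM and tested in 1 fit of the 3 groups with 17 residual degrees of freedom (edgeR 4.0.16, robust quasi-likelihood, R 4.3.3). The threshold was an adjusted p of 0.05. The test was checked on simulated counts. Exon length is the merged length over all transcripts. Ratios used counts plus 0.5 and exact permutation tests. Alternatives were other scalings, DESeq2 1.42.0, limma 3.58.1, no filter, the 2 groups alone and each library left out. Replicate numbers were given in accession order. Genes and lists were chosen with earlier results of these data known. All 10 genes are named, and from each other list the up to 3 called genes of smallest p.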

Additional observations from a re-analysis of the deposited data

Results flagged for a closer look

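Among 39 groups of values checked for a library far from the rest of its group (10 genes and 3 ratios in 3 groups), 1 stood out, where chance gives about 1 in 20. Plin3 in chow control replicate 1 was at 41.7 CPM, and the next of the 5 chow libraries was at 33.7 CPM, a gap of 0.762 of the group's range.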

How the results depend on the processing

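No paired analysis was possible because the replicate numbers follow accession order and pair no libraries. The 10 genes in 3 comparisons were refitted under 27 alternatives each, 810 values in all, of which 773 kept direction and side of the threshold, 20 lost the call, 9 gained it and 8 changed sign. The number of the 10 genes called with the gRNA against HFHF control was 5, 3 without the low-count filter, and 2 to 6 with 1 library left out. These 5 were 3 higher and 2 lower, against 0 higher and 4 lower under library totals. With upper-quartile scaling and in a fit of both HFHF groups alone, 2 were higher and 3 lower. The number called was 8 on the diet and 7 in gRNA against chow control with any library left out.

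Sign changes, none of them in a called gene, were for Pnpla2 with the gRNA (-0.02 with upper-quartile scaling, -0.14 with library totals, -0.02 to 0.07 with 1 library left out), Abhd5 in gRNA against chow control (-0.02 to 0.10 with 1 library left out) and G0s2 in gRNA against chow control (0.01 with limma-voom, -0.34 to 0.15 with 1 library left out). The cause was not tested. Of 129 ratio values 126 kept direction and side. With 1 library left out the G0s2 to Pnpla2 difference ran from -1.27 to -0.51 on the diet and -1.01 to -0.24 in gRNA against chow control, and the Plin5 to Plin2 difference from -0.51 to -0.32 on the diet. Hilpda had 14 to 76 counts a library, which limits its precision.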
